A study of Mus musculus with 3 samples.

Results

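The histone genes described here are those of the Hist1, Hist2 and Hist3 clusters, chosen as every symbol of the deposited table that begins with Hist, a cluster number from 1 to 4 and an h. There were 63 such members among 28074 symbols. By type, 6 encode the linker histone H1, 18 belong to H2A, 16 to H2B, 11 to H3 and 12 to H4. By place, 51 belong to Hist1 on chromosome 13, 9 to Hist2 on chromosome 3 and 3 to Hist3 on chromosome 11. Hist4 had no member, and Hist4h4, Hist1h2ao, Hist1h2ap, Hist1h2bl, Hist1h2bm, Hist1h2bn and Hist2h3c1, which the mouse annotation also places in these families, were not analysed here.

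RNA was sequenced from leukemic spleen cells of 3 moribund mice that form 1 group. Each carried the deletion of miR-196b (miR196b-/-), Dnmt3afl/fl, Flt3ITD/ITD and Mx1Cre, and developed acute myeloid leukemia (AML). Dnmt3a is a DNA methyltransferase, Flt3-ITD an internal tandem duplication that activates the Flt3 receptor, and Mx1Cre a recombinase driven by an interferon-responsive promoter that is active in many blood cells and not in leukemia cells alone. The sample titles give Dnmt3a+/- where the genotype field gives Dnmt3afl/fl, and ages were not given in the sources used here. Red cells had been lysed and cells bearing c-Kit (CD117), a receptor of blood progenitors, enriched on magnetic beads. The study set these leukemias beside Dnmt3a/Flt3-ITD leukemias that keep miR-196b. Those control mice come from another series and were not analysed here, so nothing below bears on the effect of losing miR-196b. The numbers 1 to 3 follow the sample records and serve as names.

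Replication-dependent histone genes are switched on as a cell copies its DNA, when new chromatin needs histones for the added DNA. The core particle of chromatin holds H2A, H2B, H3 and H4 in equal numbers, and H1 binds the DNA that links particles. Most of these genes lack introns, and their mRNAs end in a conserved stem-loop in place of a poly(A) tail. The stem-loop is bound by Slbp and is needed for 3′ end formation, translation and rapid decay after replication. Some of these genes also give polyadenylated RNA. How much histone RNA a library takes up depends on whether it selects poly(A), and the labels name both ribosome depletion and a stranded mRNA kit, so how the levels below relate to all histone RNA in the cell cannot be told apart from how the library was made. None of 8 other RNAs without a poly(A) tail (such as Rmrp and Terc) had a row analysed here.

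The stem-loops of the members are shown first, since they are what sets these mRNAs apart from others. A hairpin with a stem of 6 base pairs and a loop of 4 bases was looked for within 150 bases after the stop codon of the GENCODE M21 transcript (GRCm38). Only stems that start with GG and end with CC were taken, with G-U pairs allowed, so those bases were set in advance. Such a hairpin was found in 41 of the 60 members with a reading frame. Of the 19 without it, 17 have an annotated 3′ UTR under 60 bases, so the search had little sequence to read. The others were Hist1h2bc and Hist2h2be. The 41 hairpins took 8 forms, which divided by type. In all 30 H1, H2A, H2B and H3 hairpins the stem began with GGCTC, while the 11 H4 hairpins began with GGCCC in 9 members and GGTCC in 2. The form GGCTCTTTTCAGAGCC was carried by 22 members, 3 of H1, 8 of H2A, 7 of H2B and 4 of H3. The form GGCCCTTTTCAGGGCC was carried by 6 members, each of H4. Examples of each type follow, as DNA letters 5′ to 3′ on the strand of the gene, with the hairpin in capitals and the 5 bases on each side in lower case.

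Hist1h1e, chr13:23621777-23621802 (minus strand): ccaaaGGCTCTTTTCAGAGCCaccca
Hist2h2aa2, chr3:96239779-96239804 (minus strand): aaaaaGGCTCTTTTCAGAGCCaccca
Hist1h2bk, chr13:22036295-22036320 (plus strand): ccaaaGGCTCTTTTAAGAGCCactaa
Hist1h3b, chr13:23752815-23752840 (plus strand): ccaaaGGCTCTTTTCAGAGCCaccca
Hist1h3g, chr13:23535884-23535909 (plus strand): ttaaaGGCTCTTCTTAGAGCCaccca
Hist1h4d, chr13:23581945-23581970 (plus strand): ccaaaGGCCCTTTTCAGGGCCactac
Hist1h4a, chr13:23760795-23760820 (minus strand): ccaaaGGCCCTTCTCAGGGCCgccca
Hist1h4b, chr13:23757361-23757386 (plus strand): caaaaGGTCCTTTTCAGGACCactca
Hist1h4i, chr13:22040961-22040986 (minus strand): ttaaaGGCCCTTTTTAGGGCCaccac

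Start regions were compared next, because histone genes are known to be switched on together and the elements they carry differ by type. RefSeq windows of 300 bases, from 250 before to 50 after the annotated start (GRCm38.p6), matched 55 members, and 6 motifs were looked for on both strands among 32851 such windows. CCAAT, the CCAAT box, was in 47 members (85.5%) against 37.4% of all windows. It was in each H1, H2A, H2B and H3 window matched (6, 16, 13 and 9) and in 3 of 11 H4 windows. TATAAA, the TATA box, was in 34 members (61.8%) against 13.6% of all windows. AAACACA, known as the H1 box, was in 5 of 6 H1 windows and in 8 members in all (14.5% against 7.18%). ATTTGCAT, the octamer read by Oct1 (Pou2f1), was in 7 H2A and 5 H2B windows and in no other type (21.8% against 1.74%). TTTCGCGC, a form of the E2F site, was in 5 H2A and 4 H2B windows (16.4% against 0.323%), and TTTGGCGC, another form, in 0 against 0.514%. Paired H2A and H2B genes that start back to back have overlapping windows, so a match can count for both. These are letters in a window and were not tested as sites. The windows below are those of a highly expressed member of H1, H2B and H4 and, to show an H4 window without CCAAT, of Hist1h4k. Capitals mark motif matches on either strand.

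Hist1h1e, chr13:23622509-23622808 (minus strand): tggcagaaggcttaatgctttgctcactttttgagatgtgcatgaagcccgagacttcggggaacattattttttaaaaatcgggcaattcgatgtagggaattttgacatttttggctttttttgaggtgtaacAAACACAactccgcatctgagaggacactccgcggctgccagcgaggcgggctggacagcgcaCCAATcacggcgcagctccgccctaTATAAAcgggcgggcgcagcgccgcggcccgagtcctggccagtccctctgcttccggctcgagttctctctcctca
Hist1h2bg, chr13:23571150-23571449 (plus strand): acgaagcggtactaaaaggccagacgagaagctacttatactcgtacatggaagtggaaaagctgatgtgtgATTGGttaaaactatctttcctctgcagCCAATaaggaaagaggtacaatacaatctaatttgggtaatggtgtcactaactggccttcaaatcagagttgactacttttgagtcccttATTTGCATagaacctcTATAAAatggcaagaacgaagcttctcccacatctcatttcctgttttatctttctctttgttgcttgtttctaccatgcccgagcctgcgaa
Hist1h4d, chr13:23581318-23581617 (plus strand): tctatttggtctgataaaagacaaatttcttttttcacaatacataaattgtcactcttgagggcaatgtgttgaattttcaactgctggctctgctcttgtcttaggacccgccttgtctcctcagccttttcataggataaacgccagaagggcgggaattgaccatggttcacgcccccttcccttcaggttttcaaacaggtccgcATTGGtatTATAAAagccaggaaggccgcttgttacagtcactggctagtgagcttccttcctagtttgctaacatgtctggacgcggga
Hist1h4k, chr13:21750504-21750803 (minus strand): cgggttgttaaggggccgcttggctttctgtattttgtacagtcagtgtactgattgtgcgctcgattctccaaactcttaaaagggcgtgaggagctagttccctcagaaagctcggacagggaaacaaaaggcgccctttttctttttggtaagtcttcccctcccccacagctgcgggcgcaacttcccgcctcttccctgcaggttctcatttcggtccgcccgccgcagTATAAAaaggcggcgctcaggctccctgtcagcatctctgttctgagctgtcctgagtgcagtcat

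Histone transcripts were abundant in all 3 leukemias. Levels are in TPM, a unit that divides by transcript length and by the library's total, while the depth is unknown. Comparing genes within a library rests on the lengths used, which are not known here. In GENCODE M21 the members' transcripts have 312 to 7425 bases, and that of Hist1h1d runs 4884 bases past its stem-loop. Rankings of single genes can therefore depend on the annotation. The members summed to 39096 TPM in mouse 1, 32854 TPM in mouse 2 and 42330 TPM in mouse 3 (mean 38093 ± 4817, SD, n = 3). That was 4.21%, 3.54% and 4.56% of each column. Mouse 2 was lowest and mouse 3 highest, by a ratio of 1.29 between them. A level of at least 1 TPM was reached by 62, 61 and 61 members, against 53.8%, 53.8% and 53.3% of all symbols. No member was at 0 in all mice, and 61 had a mean of at least 1 TPM, the minimum for the counts of highest, lowest and 2-fold different members below. The others were Hist1h2aa, at 1.31, 0.346 and 0.9095 TPM in mice 1, 2 and 3, and Hist2h2bb, at 0.405, 0.198 and 0.602 TPM.

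The median level of a member was 517 TPM against 17.5 TPM for the 15181 symbols with a mean of at least 1 TPM. There were 48 members in the top 10% of those symbols, which started at 98.2 TPM, and 16 in the top 1%. Of the 126 symbols over 1000 TPM, 12 were histone members. Another 8 members lay under 20 TPM. The 10 leading members held 44.3%, 45.0% and 46.4% of the summed level in mice 1, 2 and 3.

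**Figure D1:**
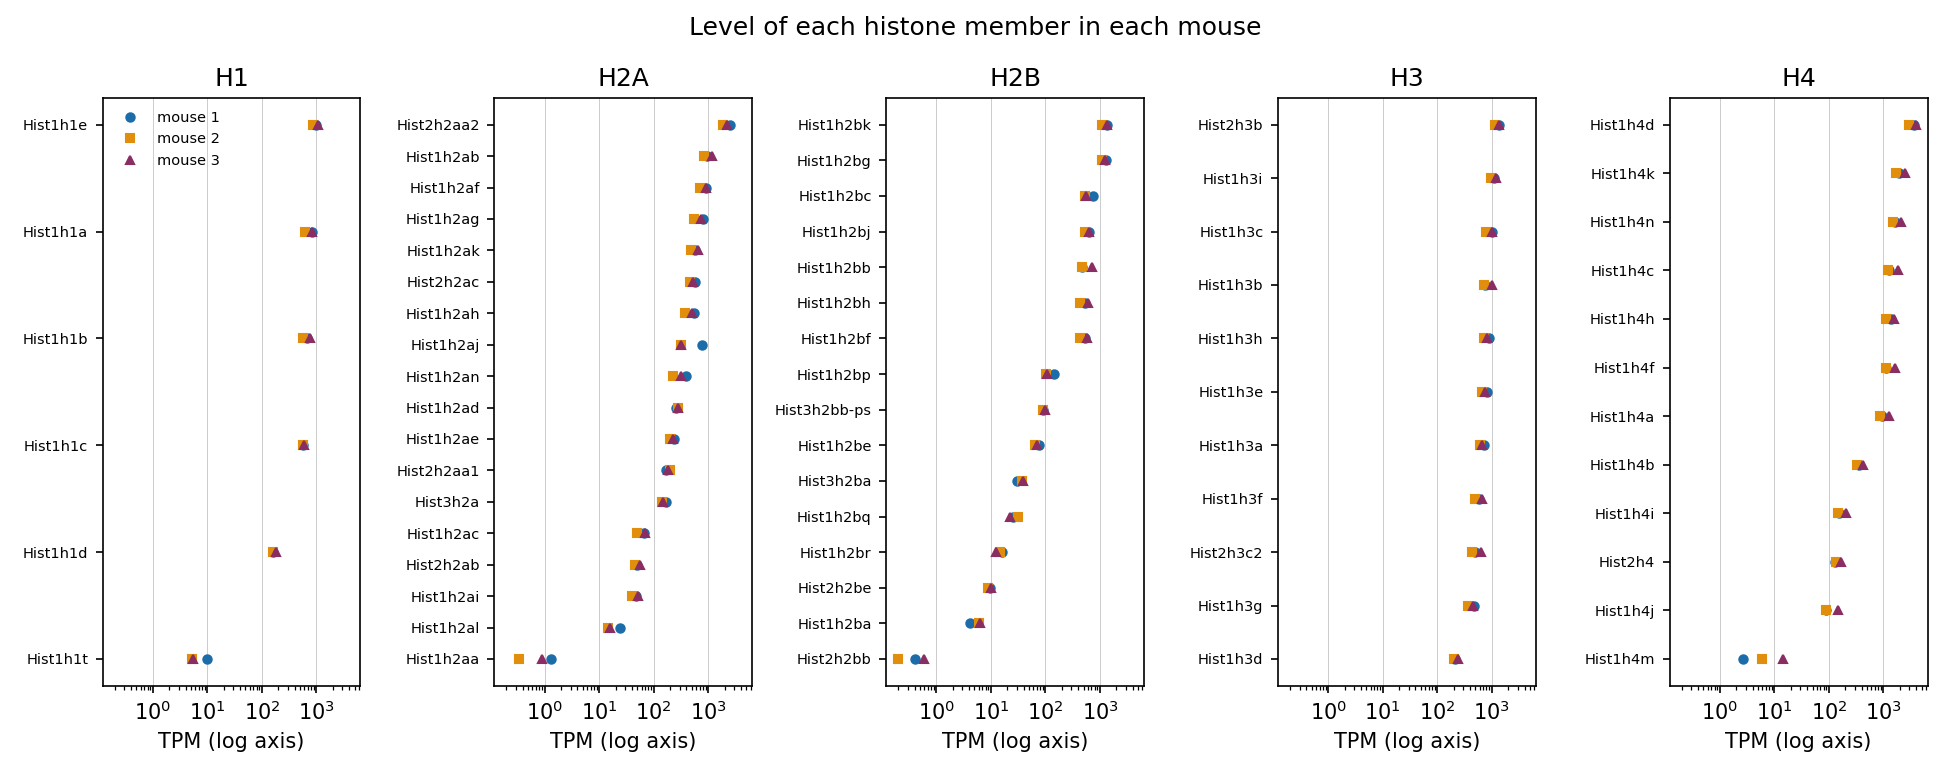
Level of each of the 63 histone members (horizontal axis, TPM on a log axis) in each of the 3 mice (symbols), in 1 panel per type with the member of highest mean at the top. Levels span from under 1 TPM (Hist1h2aa, Hist2h2bb) to 3461.7 TPM on average (Hist1h4d), and for most members the mice lie close together on this scale.

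The H4 genes gave the most RNA of any type. H4 summed to 12489.5, 11094 and 15727 TPM in mice 1, 2 and 3 (mean 13103 ± 2377, SD, n = 3), which was 34.3% ± 2.64 of the members' level. H3 summed to 8424, 7158 and 8791 TPM (8124 ± 857, 21.4% ± 0.533). H2A summed to 8972, 6843 and 8387 TPM (8067 ± 1100.1, 21.2% ± 1.60). H3 and H2A did not differ beyond their spread, with an H3 to H2A ratio of 0.939, 1.05 and 1.05. H2B summed to 5961, 4972 and 5982 TPM (5639 ± 577, 14.8% ± 0.614), and H1 to 3249, 2787 and 3442 TPM (3159 ± 337, 8.31% ± 0.176). In each of the 3 mice H4 stood above H3 and H2A, those above H2B, and H2B above H1. The ratio of H4 to H3 was 1.48, 1.55 and 1.79 in mice 1, 2 and 3, and that of H2A to H2B was 1.505, 1.38 and 1.40. The H2A sum holds Hist1h2aj, annotated as an unprocessed pseudogene, at 766, 317 and 321 TPM in mice 1, 2 and 3. The H2A ratios, and the place of H2A above H3 in mouse 1 only, therefore rest partly on that member. The sums also hold the annotated pseudogenes Hist1h2al and Hist3h2bb-ps. Equal protein use does not require equal RNA, and proteins were not measured here. The 7 annotated genes without a row belong to H2A, H2B, H3 and H4, so type sums leave them out.

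**Figure D2:**
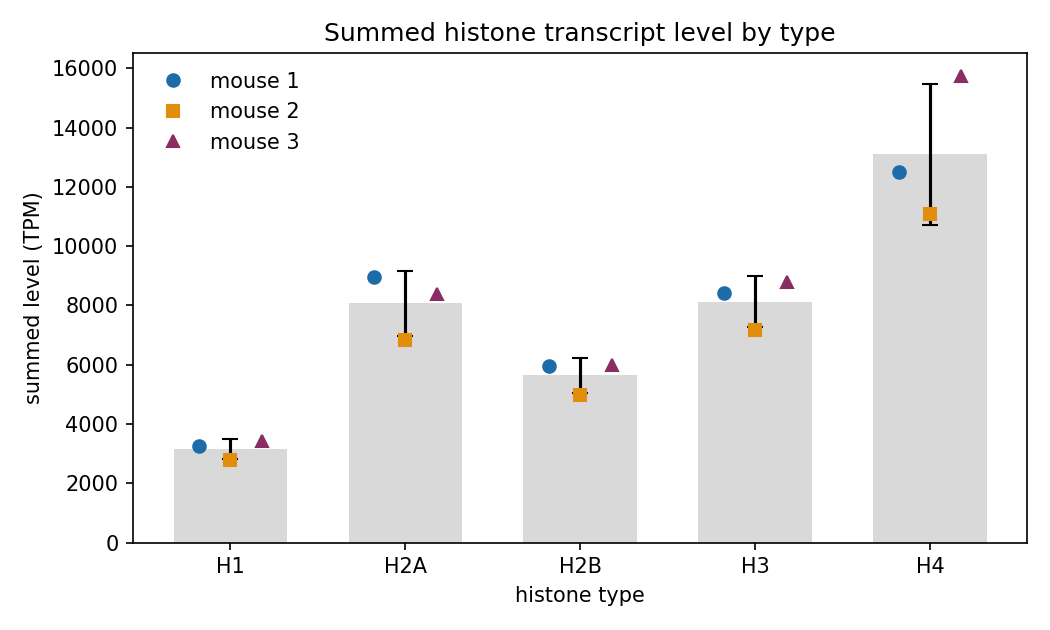
Summed level in TPM of the members of each histone type (bars, mean of 3 mice; error bars, SD; symbols, single mice). H4 is highest in every mouse and reaches 15727 TPM in mouse 3, while mouse 2 is the lowest mouse for all 5 types.

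Among the linker histones, 5 members carried nearly all of the H1 level. Hist1h1e (H1.4) was at 999.6, 857 and 1052 TPM in mice 1, 2 and 3 (mean 969.7 ± 101, SD, n = 3). Hist1h1a (H1.1) was at 836, 628 and 831 TPM in mice 1, 2 and 3 (mean 765 ± 118, SD, n = 3). Hist1h1b (H1.5) was at 680.2, 577 and 771 TPM in mice 1, 2 and 3 (mean 676 ± 97.1, SD, n = 3). For these 3 members mouse 2 was the lowest mouse. Hist1h1e lay above the other members in each mouse, while the ranges of Hist1h1a and Hist1h1b over mice overlapped. Hist1h1c (H1.2) was at 566, 557 and 599.7 TPM in mice 1, 2 and 3 (mean 574 ± 22.7, SD, n = 3), the steadiest of the 5. Hist1h1d (H1.3) was at 159, 163 and 183 TPM in mice 1, 2 and 3 (mean 168 ± 12.9, SD, n = 3). Hist1h1t, the testis linker histone, was at 9.66, 5.31 and 5.45 TPM in mice 1, 2 and 3 (mean 6.81 ± 2.47, SD, n = 3), at the low end of the members. The 3 leading genes held 76.3% of the H1 level. H1 transcripts differ in sequence, and a median of 96.2% of their 31-base words occur in no other gene's transcripts. Their levels therefore rest on reads of their own more than those of other types. The share was lowest for the leading member Hist1h1e, at 65.3%, with 24.5% of its words shared with Hist1h2be, so its level is less certain.

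Among the H2A genes, the Hist2 pair Hist2h2aa1 and Hist2h2aa2 encodes 1 protein. Hist2h2aa2, with the highest mean of any single H2A member, was listed at 2475, 1908 and 2203 TPM in mice 1, 2 and 3 (mean 2195 ± 284, SD, n = 3) and Hist2h2aa1 at 168, 203 and 181 TPM in mice 1, 2 and 3 (mean 184 ± 17.7, SD, n = 3). These 2 genes have 0% of 31-base words of their own, and all words of Hist2h2aa1 also occur in the gene Gm20633. How reads were divided among these genes is uncertain, and the sum of the pair leaves Gm20633 out. Summed, they were at 2644, 2111 and 2384 TPM (2379.7 ± 266, SD, n = 3), 29.5% of the H2A level. Hist1h2ab was at 934, 843 and 1179.5 TPM in mice 1, 2 and 3 (mean 986 ± 174, SD, n = 3), highest in mouse 3. Hist1h2af was at 903, 697 and 931 TPM in mice 1, 2 and 3 (mean 843 ± 128, SD, n = 3). A group of 7 Hist1 members that encode one H2A protein (Hist1h2ab, Hist1h2ac, Hist1h2ad, Hist1h2ae, Hist1h2ag, Hist1h2ai and Hist1h2an) summed to 2713, 2184 and 2874 TPM (2590.3 ± 361), 32.1% of the H2A level. Apart from Hist1h2aa, below 1 TPM, the H2A members not given here one by one ranged on average from 18.2 TPM (Hist1h2al, annotated as a processed pseudogene) to 696 TPM (Hist1h2ag).

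Among the H2B genes Hist1h2bk was at 1335, 1097 and 1322 TPM in mice 1, 2 and 3 (mean 1251 ± 134, SD, n = 3) and Hist1h2bg at 1313, 1109 and 1239 TPM in mice 1, 2 and 3 (mean 1221 ± 103, SD, n = 3). These means did not differ beyond their spread. Hist1h2bc was at 761, 536 and 545 TPM in mice 1, 2 and 3 (mean 614 ± 128, SD, n = 3), with mouse 1 above the other mice. Hist1h2bj was at 634, 543 and 624 TPM in mice 1, 2 and 3 (mean 600.3 ± 49.8, SD, n = 3), below Hist1h2bc in mouse 1 and above it in mice 2 and 3, so the order of these means rests on mouse 1. Hist1h2bk, Hist1h2bg and Hist1h2bc together held 54.7% of the H2B level. Of the 16 H2B members, 8 lay under 100 TPM. The testis-type Hist1h2ba was at 4.19, 5.98 and 6.32 TPM in mice 1, 2 and 3 (mean 5.49 ± 1.14, SD, n = 3). Hist1h2bq and Hist1h2br, whose transcripts share 98.3% and 89.5% of their 31-base words with each other, were at 25.3, 31.9 and 22.5 TPM and at 16.2, 15.01 and 12.2 TPM in mice 1, 2 and 3, and they were the only members lowest in mouse 3.

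The H3 genes were all expressed, with every member between 218 TPM (Hist1h3d) and 1283 TPM (Hist2h3b) on average. Hist2h3b was at 1368, 1129 and 1351 TPM in mice 1, 2 and 3 (mean 1283 ± 133, SD, n = 3), although all of its 31-base words also occur in the annotated readthrough gene Gm20628, so its own share is uncertain. Hist1h3i was at 1096, 985 and 1186 TPM in mice 1, 2 and 3 (mean 1089 ± 101, SD, n = 3) and Hist1h3c at 1003, 789.7 and 996 TPM in mice 1, 2 and 3 (mean 929.7 ± 121, SD, n = 3). The H3 members encode 2 proteins. The 4 genes of the first (Hist1h3a, Hist1h3g, Hist1h3h and Hist1h3i, the H3.1 genes) summed to 3179, 2701 and 3140.4 TPM (3007 ± 265, SD, n = 3). The 7 genes of the second (H3.2, in Hist1 and Hist2) summed to 5245, 4457 and 5651 TPM (5117 ± 607), 63.0% of the H3 level.

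All 12 H4 members encode 1 identical protein, yet their RNA levels ranged from 7.66 to 3461.7 TPM. Hist1h4d was at 3571, 2901 and 3913 TPM in mice 1, 2 and 3 (mean 3462 ± 515, SD, n = 3), rank 17 of all symbols, and 26.4% of the H4 level. Hist1h4k was at 1911, 1719.6 and 2481 TPM in mice 1, 2 and 3 (mean 2037 ± 396, SD, n = 3) and Hist1h4n at 1623, 1519 and 2127 TPM in mice 1, 2 and 3 (mean 1756 ± 325, SD, n = 3). In each of these 3 genes mouse 2 was lowest and mouse 3 highest. Another 4 members (Hist1h4c, Hist1h4h, Hist1h4f and Hist1h4a) had means between 1013 and 1436 TPM, and Hist1h4b, Hist1h4i, Hist2h4 and Hist1h4j between 107 and 368 TPM. Hist1h4m, the lowest, was at 2.696, 5.85 and 14.4 TPM in mice 1, 2 and 3 (mean 7.66 ± 6.08, SD, n = 3). It shares 91.7% of its 31-base words with Hist1h4n, and the pair summed to 1625, 1524 and 2141 TPM.

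By cluster, Hist1 held 86.3% ± 0.780 of the members' level, Hist2 12.9% ± 0.723 and Hist3 0.748% ± 0.077. Of the 51 Hist1 members, 50 lie at chr13:21716422-23934851 (GRCm38) and 1, Hist1h2al, at chr13:51202727-51203065. The Hist1 genes at its far end were low: Hist1h2ba and Hist1h2aa averaged 5.49 and 0.856 TPM. In Hist2, at chr3:96219865-96270132, the genes with high levels were Hist2h2aa2 and Hist2h3b, given above. Hist2h2ac was at 578, 470.1 and 525 TPM in mice 1, 2 and 3 (mean 524 ± 53.9, SD, n = 3) and Hist2h3c2 at 491, 429 and 629 TPM in mice 1, 2 and 3 (mean 517 ± 103, SD, n = 3). The rest of Hist2 was lower, with Hist2h4 at 130.1, 133 and 167 TPM in mice 1, 2 and 3, Hist2h2ab at 49.3, 45.1 and 56.9 TPM and Hist2h2be at 9.704, 8.85 and 9.94 TPM. In Hist3, at chr11:58948920-58956830, Hist3h2a was at 169, 144 and 147 TPM, Hist3h2ba at 30.2, 37.2 and 38.5 TPM and the annotated pseudogene Hist3h2bb-ps at 91.9, 90.3 and 98.95 TPM.

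**Figure D3:**
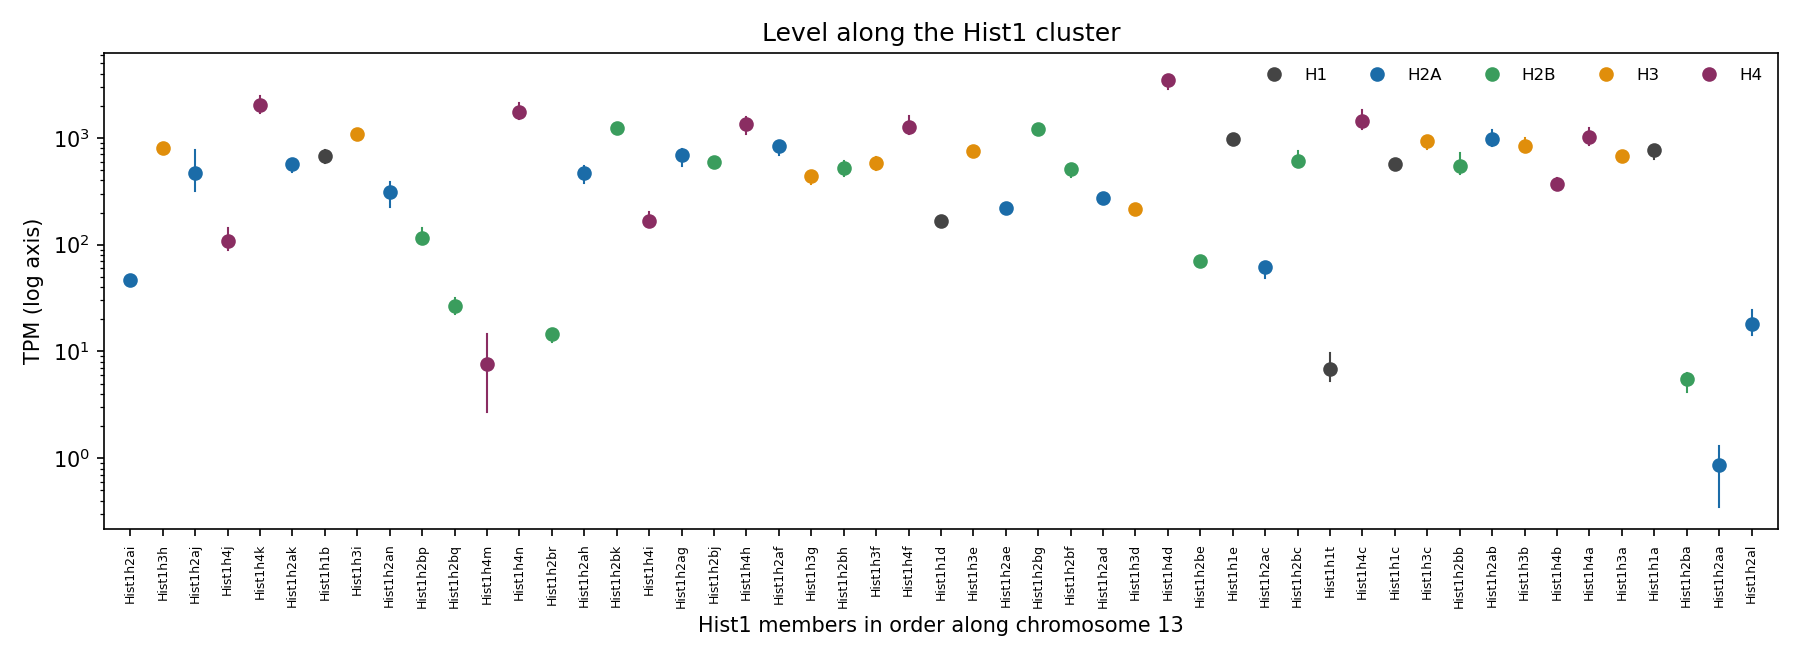
Level of the 51 Hist1 members in their order along chromosome 13 (horizontal axis, equally spaced; vertical axis, TPM on a log axis; points, mean of 3 mice; lines, lowest to highest mouse; colour, type). Members above 1000 TPM lie along much of the order, while Hist1h2ba, Hist1h2aa and Hist1h2al at its end average at most 18.2 TPM.

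H2A and H2B genes often start back to back. The annotation holds 14 such pairs with starts within 1000 bases of each other (173 to 306 bases, median 247), and both genes were members in 9, among them Hist1h2aa, which lies below 1 TPM. The 2 genes of a pair did not have equal levels. H2B was the higher in 5 pairs and H2A in 4, with a ratio of the higher to the lower mean of 1.16 to 55.2 (median 2.66). The pairs with H2A higher include Hist3h2a with Hist3h2bb-ps, which is annotated as a processed pseudogene. The nearest to equal were Hist1h2ag at 696 TPM and Hist1h2bj at 600.3 TPM. The farthest apart were Hist2h2ac at 524 TPM and Hist2h2be at 9.50 TPM, with annotated transcripts of 520 and 2620 bases. In between, Hist1h2bc stood 10.01 times above Hist1h2ac and Hist1h2bg 5.57 times above Hist1h2ae. The lowest mouse was the same for both genes in 7 of the 9 pairs. Mouse 2 was lowest for 88.2% of H2A and 73.3% of H2B members with a mean of at least 1 TPM. The count therefore does not set paired genes apart from other members.

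Most members were lowest in mouse 2, while the highest mouse varied between members. Of 61 members with a mean of at least 1 TPM, 52 were lowest in mouse 2, against 33% of all symbols with that mean. Mouse 1 was the lowest for 7 (24.4% of all) and mouse 3 for 2 (42.6%). The highest mouse was mouse 3 for 34 members (20.3%), mouse 1 for 24 (48.6%) and mouse 2 for 3 (31.1%). The order mouse 2, mouse 1, mouse 3 from low to high held for 29 members (10.3%). When each library was scaled to a common upper quartile, which shifts mice 1, 2 and 3 by -0.08, 0.01 and 0.06 on the log2 scale, 43 were lowest in mouse 2 (33.5% of all) and 49 highest in mouse 3 (30.4%). Members that share reads or a protein are not independent of each other, and 3 mice of 1 group allow no test of a difference between mice.

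The spread of the members between mice was about that of all symbols, which lie at lower levels (median 17.5 TPM against 517 TPM), so the comparison is not matched for level. The SD between mice on the log2(TPM + 1) scale had a median of 0.207 over the members and 0.208 over all symbols with a mean of at least 1 TPM, and 30 of 61 members lay above the latter. At least 2-fold differences were few. Between mice 1 and 2 there was 1 member (4.64% of all symbols), Hist1h2aj, between mice 1 and 3 there were 2 (5.38%), Hist1h2aj and Hist1h4m, and between mice 2 and 3 there was 1 (2.9%), Hist1h4m. Hist1h2aj, annotated as an unprocessed pseudogene, was at 766, 317 and 321 TPM in mice 1, 2 and 3 (mean 468 ± 258, SD, n = 3), lower in mouse 2 by a log2 difference of -1.27 and in mouse 3 by -1.25. Only 6.52% of its 31-base words are its own, and 93.5% are shared with Hist1h2ai, at 46.5, 40.8 and 51.5 TPM. Hist1h4m differed by 2.06 between mice 3 and 1 and by 1.17 between mice 3 and 2 on the log2 scale, around a mean of 7.66 TPM.

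The H4 genes were highest in mouse 3. All 12 H4 members were highest in mouse 3, against 4 of 6 for H1, 6 of 17 for H2A, 7 of 15 for H2B and 5 of 11 for H3. With libraries scaled to equal upper quartiles the H4 count was again 12 of 12, with 5, 10, 11 and 11 for H1, H2A, H2B and H3. The median log2 difference of mouse 3 from mouse 1 was 0.40 for H4 (0.54 scaled), against 0.08 for H1, -0.06 for H2A, -0.02 for H2B and -0.01 for H3 (0.22, 0.08, 0.13 and 0.13 scaled). Without Hist1h4m, the H4 differences ran from 0.13 to 0.69 with a median of 0.39. The share of H4 in the members' level was 31.9%, 33.8% and 37.2% in mice 1, 2 and 3. The ratio of the summed level of mouse 3 to that of mouse 1 was 1.26 for H4, 1.06 for H1, 0.935 for H2A, 1.004 for H2B and 1.04 for H3 (1.39, 1.17, 1.03, 1.11 and 1.15 scaled). That of H2A includes the annotated pseudogene Hist1h2aj, at 766 TPM in mouse 1 and 321 TPM in mouse 3. Whether types differ between mice was not tested, since each mouse is 1 sample. H4 genes with at least 50% of 31-base words of their own were highest in mouse 3 in 7 of 7 cases, and those with fewer in 5 of 5.

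**Figure D4:**
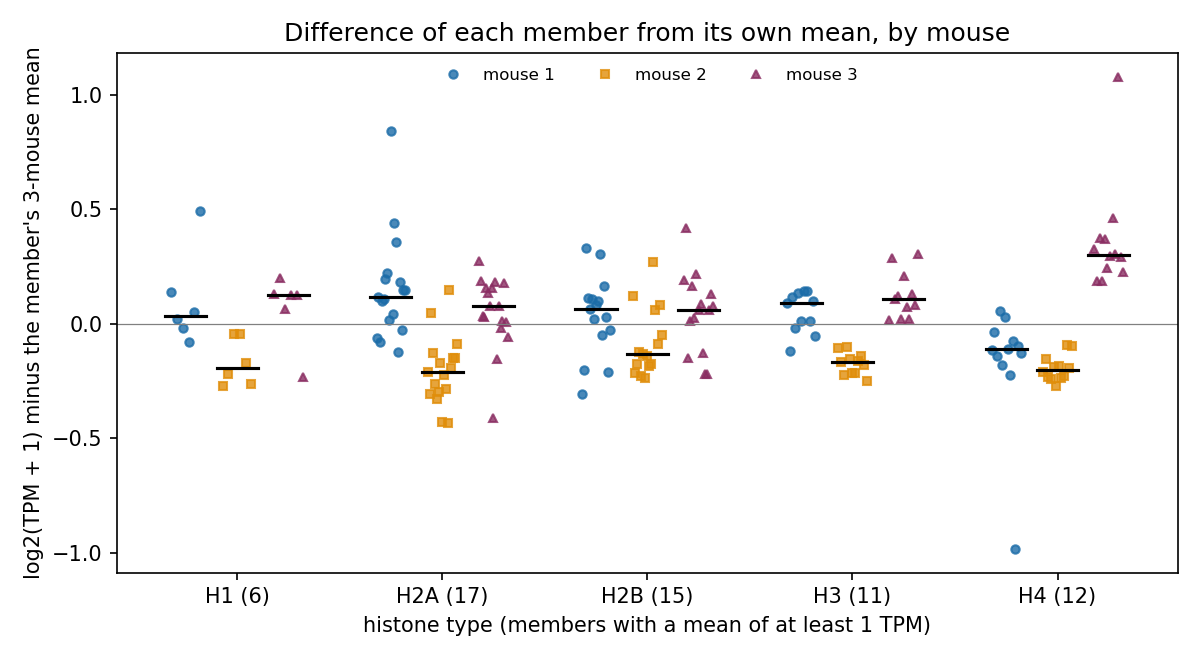
Difference of each member from its own 3-mouse mean on the log2(TPM + 1) scale (vertical axis), for the 61 members with a mean of at least 1 TPM, by type and mouse (symbols; black lines, medians). All 12 H4 members are highest in mouse 3, and for each type mouse 2 has the lowest median.

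Most listed genes of DNA replication were also lowest in mouse 2 and highest in mouse 3. Of 20 S phase genes, which load and run the replication machinery (such as Mcm6, a helicase subunit, Rrm2, of ribonucleotide reductase, and Pcna, the sliding clamp), 19 were lowest in mouse 2 and 14 highest in mouse 3 (16 and 19 scaled). Pcna was at 458, 441 and 516 TPM in mice 1, 2 and 3 (mean 472 ± 39.3, SD, n = 3) and Rrm2 at 121, 102 and 158 TPM in mice 1, 2 and 3 (mean 127 ± 28.05, SD, n = 3). The 12 mitosis genes were lowest in mouse 2 in 11 cases and highest in mouse 3 in 10 (9 and 12 scaled). Of all symbols with a mean of at least 1 TPM, 33% were lowest in mouse 2 and 20.3% highest in mouse 3 (33.5% and 30.4% scaled). Mki67, a marker of cycling cells, was at 143, 133 and 201 TPM in mice 1, 2 and 3 (mean 159 ± 36.7, SD, n = 3). The summed level of mouse 2 over mouse 1 was 0.840 for the histone members, 0.846 for the S phase genes and 0.868 for the mitosis genes, and of mouse 3 over mouse 2 it was 1.29, 1.27 and 1.37. In bulk RNA, fewer cycling cells and less of this RNA in each cycling cell cannot be told apart. What these lists and the histone members share in cause was not tested.

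**Figure D5:**
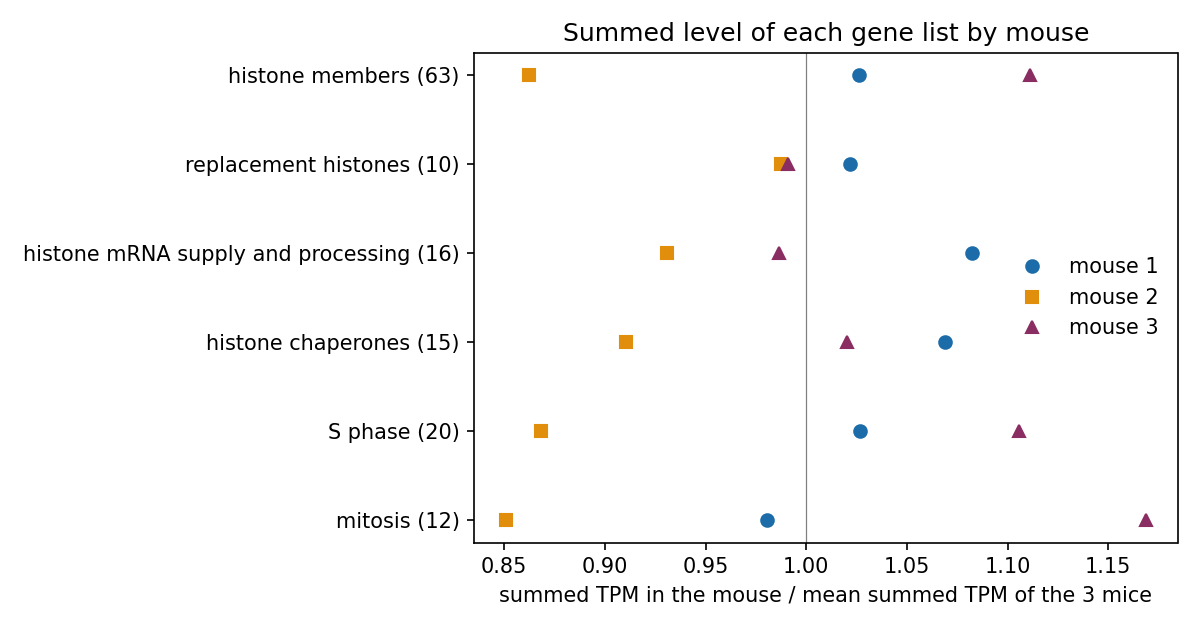
Summed TPM of the 63 histone members and of 5 gene lists in each mouse (symbols), divided by the mean of the 3 mice (horizontal axis). Histone members, S phase genes and mitosis genes have mouse 2 lowest and mouse 3 highest, while the replacement histones lie near 1 in all mice.

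Most of the genes that supply or handle histone RNA were highest in mouse 1, both as deposited and scaled. Of 16 such genes, 12 were highest in mouse 1 (48.6% of all symbols), 7 were lowest in mouse 2 (33%) and 0 had the order mouse 2, mouse 1, mouse 3 (10.3%). With libraries scaled, 10 were highest in mouse 1 (35.6% of all) and 5 in mouse 3 (30.4%). Again 7 were lowest in mouse 2 (33.5%), and 1 had that order (14.5%). Their summed level in mouse 3 was 0.911 of that in mouse 1 as deposited and 1.01 scaled, so the order of these 2 sums depended on the scaling. Slbp, the stem-loop binding protein, was at 117, 119.8 and 142 TPM in mice 1, 2 and 3 (mean 126 ± 13.8, SD, n = 3). Npat, the coactivator of histone genes at the start of S phase, was at 24.5, 18.5 and 21.98 TPM in mice 1, 2 and 3 (mean 21.7 ± 3.01, SD, n = 3). The 15 histone chaperones, which carry histones to and from chromatin, were lowest in mouse 2 in 11 cases (33% of all symbols) and highest in mouse 1 in 10 (48.6%). Scaled, 10 were lowest in mouse 2 (33.5%), 7 highest in mouse 1 (35.6%) and 6 highest in mouse 3 (30.4%), and their summed level in mouse 3 was 1.05 times that in mouse 1, against 0.954 as deposited. Asf1b was at 31.7, 25.6 and 42.4 TPM, Nasp at 99.5, 76.1 and 95.2 TPM and Chaf1b, a subunit of the replication-coupled assembly factor CAF-1, at 50.3, 37.6 and 38.8 TPM in mice 1, 2 and 3.

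Replacement histones are made outside replication as well, mostly from polyadenylated mRNAs of single genes. Of 11 listed, 10 had a row. H3f3a and H3f3b, which both encode H3.3, were at 1112, 1057 and 1151 TPM in mice 1, 2 and 3 (mean 1107 ± 47.4, SD, n = 3) and at 1121, 1115 and 1044 TPM in mice 1, 2 and 3 (mean 1094 ± 42.7, SD, n = 3). The cluster H3 genes summed to 3.77, 3.30 and 4.004 times the pair in mice 1, 2 and 3 (3.69 ± 0.361, SD, n = 3). H2afy (macroH2A.1) was at 1056, 1076 and 999 TPM in mice 1, 2 and 3 (mean 1044 ± 39.8, SD, n = 3), and H2afz, of H2A.Z, at 710.0, 696 and 636 TPM in mice 1, 2 and 3 (mean 680.4 ± 39.4, SD, n = 3). The replacement histones summed to 4537, 4384 and 4400.3 TPM (4440.3 ± 84.1). Of the 10, 7 were lowest in mouse 2 (33% of all symbols), and 5 were when scaled (33.5%). The median log2 difference of mouse 2 from mouse 1 was -0.12 (-0.03 scaled). The ratio of the sums, which rests mostly on H3f3a, H3f3b, H2afy and H2afz, was 0.966 between mice 2 and 1 (1.03 scaled), where that of the histone members was 0.840 (0.896 scaled). H2afx, whose gene also gives a stem-loop mRNA, was at 280.4, 230.5 and 304 TPM in mice 1, 2 and 3 (mean 272 ± 37.5, SD, n = 3). The order mouse 2, mouse 1, mouse 3 was that of 4 of the 10 replacement histones (H2afx, H3f3a, H2afv and Cenpa), against 10.3% of all symbols. When scaled, it was that of 2 of the 10 (14.5% of all). H2afv was at 96.4, 85.4 and 117 TPM, Cenpa, of the centromere, at 87.02, 84.2 and 96.5 TPM, H2afj at 46.1, 28.8 and 38.3 TPM, H1fx at 18.8, 7.46 and 9.37 TPM and H2afy2 at 8.84, 3.92 and 5.203 TPM in mice 1, 2 and 3.

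The labelled cells were checked against their markers, and other cell types beside them. Kit was at 139, 149 and 133 TPM, Flt3 at 146, 157 and 106 TPM, Cd34 at 202, 141 and 137 TPM and Mpo at 1081, 864 and 1632 TPM. Erythroid markers (5 of 5 listed, none at 0) summed to 170.6, 134 and 233 TPM, in the order of the histone members. All 5 were lowest in mouse 2 and highest in mouse 3. Most of the sum was Tfrc, at 149.5, 120 and 176 TPM in mice 1, 2 and 3. The other erythroid markers were at most 24.6 TPM (Klf1 in mouse 3). Neutrophil markers (5 of 5, none at 0) summed to 2259, 6051 and 20403 TPM, lowest in mouse 1 and highest in mouse 3. The H4 sum was also highest in mouse 3 but lowest in mouse 2, so the orders of the mice differed. B cell markers summed to 15.3, 12.8 and 16.4 TPM, mostly Cd79b (13.1, 8.94 and 10.1 TPM). T and NK cell markers summed to 164, 115 and 158 TPM, mostly Nkg7 (153, 101 and 143 TPM). What these cells contribute to the histone levels was not tested.

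Similarity of sequence limits the split between single members. Across the 63 members a median of 41.1% of 31-base words occur in no other gene's transcripts (22.9% for H2A, 50.9% for H2B, 38.1% for H3 and 51.0% for H4), and 37 members lie under 50%. Hist2h2bb, under 1 TPM, shares 100% of its words with Gm20628, so its own level is uncertain. The 25 members with a mean of at least 1 TPM and at least 50% of words of their own held 35.1% of the summed level. Of these 25, 21 were lowest in mouse 2 and 19 highest in mouse 3. Of the 36 others, 31 were lowest in mouse 2 and 15 highest in mouse 3. Across members, Spearman's rho of the level with transcript length was 0.07 and with the share of own words -0.14 (63 members that share libraries, given as a description).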

How the data were processed

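RNA-seq values of 3 mice came from 1 table of TPM values made and deposited by the authors; kallisto and mm10 stand in the submitters' processing notes, with no role given. The name of the table says log2 FPKM, but its values are linear with near-equal sums (927169 to 929731), so they were taken as TPM. The other 3 per-sample columns, of control mice in another series, were not used. Depth is unknown, since TPM keeps none: the labels give paired reads of 150 nt and an RNA integrity number above 8. Rows of a symbol were summed. Blank symbols (795 of 28987 rows, at most 0.608% of a column) and 27 date-like symbols (at most 0.202%) were left out. The members and lists were chosen with earlier results of these data known.

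Values were read with Python 3.11.15, pandas 2.3.3 and numpy 2.4.6. Differences are on the log2(TPM + 1) scale. A symbol entered counts with a mean of at least 1 TPM, and mice were compared at 2-fold with no test, since the 3 mice form 1 group and their spread is the only error. The text names the 3 leading members of each type, each H1 detected, Hist2 and Hist3 members with a mean of at least 1 TPM, members 2-fold apart and the replacement histones. Transcripts are GENCODE M21; the stem-loop was sought within 150 bases after the stop codon, and not in the last 150 bases of the transcript as planned, where 21 of the 41 lie. The share of own words counts 31-base words of a gene's transcript found in no other gene's. The count of 2-fold differences was tested on simulated data.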

Additional observations from a re-analysis of the deposited data

How the results depend on the processing

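With 3 mice, 1 group and no depth, only spread between mice limits the values. No paired analysis was possible because the 3 mice form 1 group. Leaving out 1 of 3 mice cannot move a mean by 1 SD, scaling a library leaves shares and the ratio of H4 to H3 as they are, and no member stands on several rows, so those alternatives do not show that means and shares are stable. Hist1h4m averaged 7.66 TPM in all mice and 4.27 TPM without mouse 3. With the most abundant member, Hist1h4d, left out, the share of H4 was 27.7%, that of H1 9.14%, of H2A 23.3%, of H2B 16.3% and of H3 23.5%, and the share of Hist1 was 85.0% and of Hist2 14.2%. A detection threshold of 0.1 TPM gave 63 members and one of 5 TPM gave 60.3 on average. Scaling gave 10 members highest in mouse 1 and 16 lowest in mouse 1. Leaving out each mouse in turn moved the median SD to between 0.123 and 0.227, the lowest without mouse 2. A pseudocount of 0.1 gave 2 members 2-fold apart between mice 1 and 2. With values summed over members that encode the same protein, 1 was 2-fold apart between mice 1 and 3 and 0 between mice 2 and 3. Among members with at least 50% of 31-base words of their own, the ratio of H4 to H3 was 35.1, where H3 has 1 such member, so that value does not describe H3. The alternatives on shared sequence, and those on the ratio of H4 to H3, were chosen after seeing the data.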
